A study of Homo sapiens with 3 samples.

Results

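The genes described here are 30 genes of cholesterol and fatty acid synthesis and of their control by the sterol regulatory element binding proteins (SREBPs), out of 23595 named genes on the arrays. They were chosen by name, as enzymes, regulators and transporters of these pathways, and all 30 were found in the annotation of the arrays, with MSMO1 under its older name SC4MOL and SC5D under SC5DL. They were read by 55 transcripts, 13 genes by 1 transcript and 17 by several. RNA came from HaCaT cells, human keratinocytes of the epidermis that became immortal in culture without an added oncogene, and was measured on single-colour NimbleGen arrays. The groups were cells given 1 µM all-trans retinoic acid (ATRA, the form of vitamin A that binds retinoic acid receptors) together with nicotinamide (NIC, vitamin B3 as its amide), cells given 1 µM ATRA alone, and untreated control cells, all for 36 h. Each group holds 1 array, the sources used here give no nicotinamide dose, and no array held cells given nicotinamide alone. No test between groups was possible, so every difference is a description of these 3 arrays, without an error between cultures.

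Cholesterol is built from acetyl-CoA through mevalonate, isoprenoid units, squalene and a chain of sterol intermediates, and fatty acids are built from the same precursor. The SREBP transcription factors are held in the endoplasmic reticulum with the escort protein SCAP. When sterols are abundant INSIG proteins retain this complex, and when sterols are scarce SCAP carries SREBP to the Golgi, where it is cleaved and released to switch on genes of synthesis and uptake. Keratinocytes make much of the cholesterol and fatty acid of the epidermal permeability barrier themselves.

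SREBPs are known to bind promoters beside the factors NF-Y and Sp1. The promoters of 5 of the genes that differed at least 1.5-fold between the arrays are shown, because INSIG1, HMGCS1 and MSMO1 were lower with nicotinamide than with ATRA alone while LSS and TM7SF2 were higher. Each is the 250 bases before the RefSeq start of the gene on GRCh38.p14, written 5′ to 3′ on the strand of the gene. Capitals mark the NF-Y box, CCAAT or its reverse complement, and in INSIG1 also the SREBP core described below.
INSIG1: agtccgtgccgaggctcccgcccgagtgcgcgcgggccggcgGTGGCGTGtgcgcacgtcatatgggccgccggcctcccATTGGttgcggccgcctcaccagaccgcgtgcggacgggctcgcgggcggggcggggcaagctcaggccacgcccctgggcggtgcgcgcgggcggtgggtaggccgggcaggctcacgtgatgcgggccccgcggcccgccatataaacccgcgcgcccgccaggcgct
HMGCS1: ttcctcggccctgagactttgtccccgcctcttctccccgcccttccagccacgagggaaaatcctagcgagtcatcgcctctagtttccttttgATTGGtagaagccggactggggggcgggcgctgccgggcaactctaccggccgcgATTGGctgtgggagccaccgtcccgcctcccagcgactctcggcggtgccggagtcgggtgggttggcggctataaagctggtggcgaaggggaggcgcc
MSMO1: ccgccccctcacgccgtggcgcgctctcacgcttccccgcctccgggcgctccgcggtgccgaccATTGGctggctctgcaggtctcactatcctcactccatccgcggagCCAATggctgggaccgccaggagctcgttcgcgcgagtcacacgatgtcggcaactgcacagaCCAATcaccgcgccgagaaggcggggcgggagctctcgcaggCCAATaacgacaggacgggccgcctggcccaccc
LSS: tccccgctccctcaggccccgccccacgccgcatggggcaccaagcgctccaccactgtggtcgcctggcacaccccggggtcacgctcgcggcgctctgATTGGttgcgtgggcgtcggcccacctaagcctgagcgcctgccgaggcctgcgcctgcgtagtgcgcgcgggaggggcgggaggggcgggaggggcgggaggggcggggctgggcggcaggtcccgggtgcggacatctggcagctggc
TM7SF2: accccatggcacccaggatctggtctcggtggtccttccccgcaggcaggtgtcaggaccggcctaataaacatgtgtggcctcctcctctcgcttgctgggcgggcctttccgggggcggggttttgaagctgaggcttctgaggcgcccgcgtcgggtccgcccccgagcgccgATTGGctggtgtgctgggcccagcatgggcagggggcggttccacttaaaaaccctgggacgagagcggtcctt

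These promoters lie at chr7:155297628-155297877 on the plus strand for INSIG1, chr5:43313413-43313662 on the minus strand for HMGCS1, chr4:165327419-165327668 on the plus strand for MSMO1, chr21:46228775-46229024 on the minus strand for LSS and chr11:65111622-65111871 on the plus strand for TM7SF2. Of the 30 genes, 25 had a promoter in the RefSeq table, and ACAT2, FDFT1, SQLE, ABCG1 and FASN did not. Both strands were searched for 4 sets of letters. The NF-Y box CCAAT was found in 17 of the 25 promoters, or 68.0%, against 34.5% of 15843 protein-coding promoters of the same length and 33.0% of all 27305. The GC box GGGCGG, a site type of Sp1, was found in 24 of 25, or 96.0%, against 56.0% of protein-coding and 42.3% of all promoters. The SREBP element was searched as TCACNCCAC, which SREBF2 alone of the 25 held, or 4.0%, against 0.884% of protein-coding and 0.875% of all promoters. Its shorter core CACNCCAC, which lies within the longer form, was found in 4, those of ABCA1, INSIG1, SCD and SREBF2, against 4.92% of protein-coding and 4.72% of all promoters. MSMO1 held 4 NF-Y boxes, HMGCS1 2, and INSIG1, LSS and TM7SF2 1 each, while LSS held 6 GC boxes. In the 5 shown, NF-Y and GC boxes stood before genes that were lower with nicotinamide and before genes that were higher. With GC boxes in 24 and NF-Y boxes in 17 of the 25 promoters, this was likely for any such choice of genes. A link between motif and direction was not tested. A match of letters is a description and not a bound site.

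**Figure D1:**
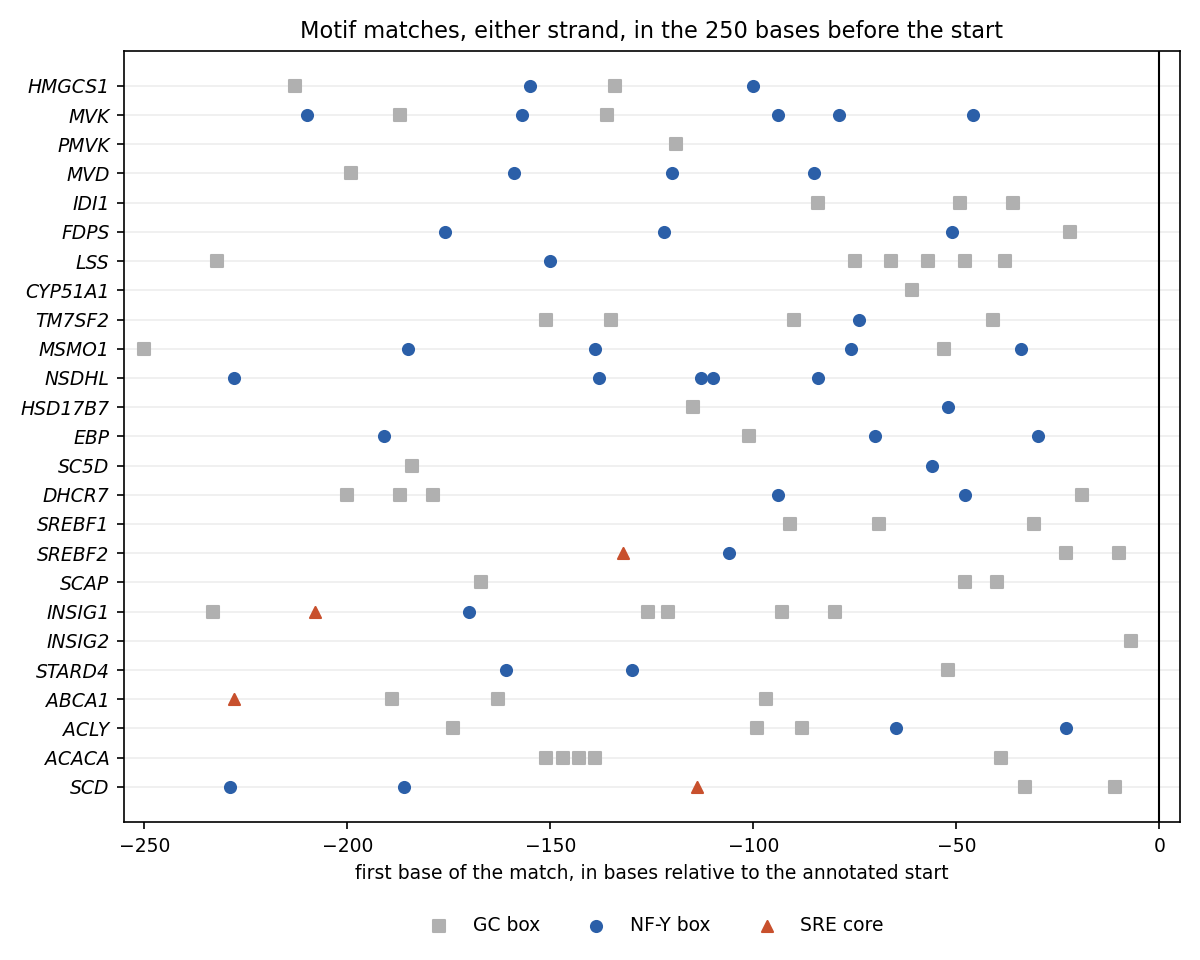
Position of motif matches in 25 promoters, as the first base of each match in bases relative to the annotated start, with GC boxes as squares, NF-Y boxes as circles and the SREBP core as triangles. GC boxes appear in 24 promoters, NF-Y boxes in 17 and the SREBP core in 4.

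The arrays had nearly the same distribution of intensities, with a median of 297.9 with ATRA+NIC, 302.3 with ATRA and 301.5 in control cells, and the random probes, a measure of background, lay at 19.6, 18.4 and 18.9 on these arrays. The level of a gene is the mean log2 intensity of its transcripts, and intensities given for a gene are that mean turned back to the linear scale. A gene entered the counts when its level on at least 1 array reached the median of all genes and arrays, an intensity of 246.5. Of the 30 genes, 27 did so, each of them on all 3 arrays, while STARD4, ABCA1 and ABCG1 did not. A gene is called different at 1.5-fold or more. All 8 keratinocyte markers reached the filter, with log2 levels of 8.82 to 15.02 on the ATRA+NIC array, 8.59 to 15.11 on the ATRA array and 8.54 to 15.17 on the control array. Their summed intensity was 74540, 79750 and 108200 on these arrays, and single markers differed between arrays, with KRT5 at 13.29, 13.29 and 14.86, TP63 at 11.10, 12.53 and 12.04 and DSG3 at 10.16, 11.51 and 10.59 in log2 level. None of 6 sebocyte or adipocyte markers and none of 4 melanocyte markers reached it, and 1 of 5 fibroblast markers did. Among 5 leukocyte markers 4 reached it, and the summed intensity of all 5 was 2872 with ATRA+NIC, 4702 with ATRA and 2367 in control cells. The defining leukocyte marker PTPRC was at log2 levels of 4.21, 7.24 and 5.07 on these arrays. The part of these markers in the results below was not tested.

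Sterol and fatty acid synthesis genes did not move as a block. With ATRA alone, SREBF1, MSMO1 and INSIG1 were 1.86-fold, 1.58-fold and 1.53-fold higher than in control cells, and SQLE, ACAT2 and LSS were 1.75-fold, 1.57-fold and 1.55-fold lower. With nicotinamide added to ATRA, HMGCS1, INSIG1, MSMO1 and HSD17B7 were 2.67-fold, 2.22-fold, 1.85-fold and 1.64-fold lower than with ATRA alone, and TM7SF2 and LSS were 1.68-fold and 1.59-fold higher. Between ATRA+NIC and control cells HMGCS1 and SQLE were 2.01-fold and 1.72-fold lower, and TM7SF2 and SREBF1 were 1.94-fold and 1.79-fold higher. The remaining 18 of the 27 genes stayed under 1.5-fold in all 3 comparisons. The share of all genes that did so was not counted, so nothing is read from this number. The ATRA array enters the first and second of these comparisons, so a high value on it raises the difference in one and lowers it in the other.

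The counts were set against those of all genes. For ATRA against control, 3 of 27 were at least 1.5-fold higher, or 11.1%, where 9.90% of 12467 genes were, and 3 were lower, again 11.1%, where 8.99% of all genes were. For ATRA+NIC against ATRA, 2 were higher, or 7.41%, with 7.88% of all genes, and 4 were lower, or 14.8%, with 9.47% of all genes. For ATRA+NIC against control, 2 were higher and 2 lower, 7.41% in each direction, with 3.96% and 3.87% of all genes. Their median log2 differences in these comparisons were −0.03, −0.02 and 0.01, beside −0.04, 0.05 and −0.01 over all genes passing the filter. Over all 30 genes the medians were −0.03, −0.07 and −0.03. The shares for ATRA against control were thus near the background, and those for ATRA+NIC against control rest on 2 genes in each direction. For ATRA+NIC against ATRA, the share of higher genes was near the background, and the share of lower genes rests on 4. HSD17B7, among these 4, is under the threshold by its brightest transcript (−0.53). At 2-fold, 0 of 27 were higher and 0 lower for ATRA against control, where 3.83% and 2.06% of all genes were, 0 were higher and 2 lower for ATRA+NIC against ATRA, where 1.35% and 3.74% were, and 0 were higher and 1 lower for ATRA+NIC against control, where 1.03% and 0.971% were. The genes past 2-fold were HMGCS1 and INSIG1 with ATRA+NIC against ATRA, and HMGCS1 against control. Transcripts of the same gene scattered with a pooled SD of 0.17, 0.22 and 0.16 in log2 difference in the 14 of these genes with several transcripts, against 0.31, 0.30 and 0.24 in all 7074 such genes. This scatter can hold both measurement noise and differences between isoforms, which these values do not separate, and it is not the spread between cultures.

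**Figure D2:**
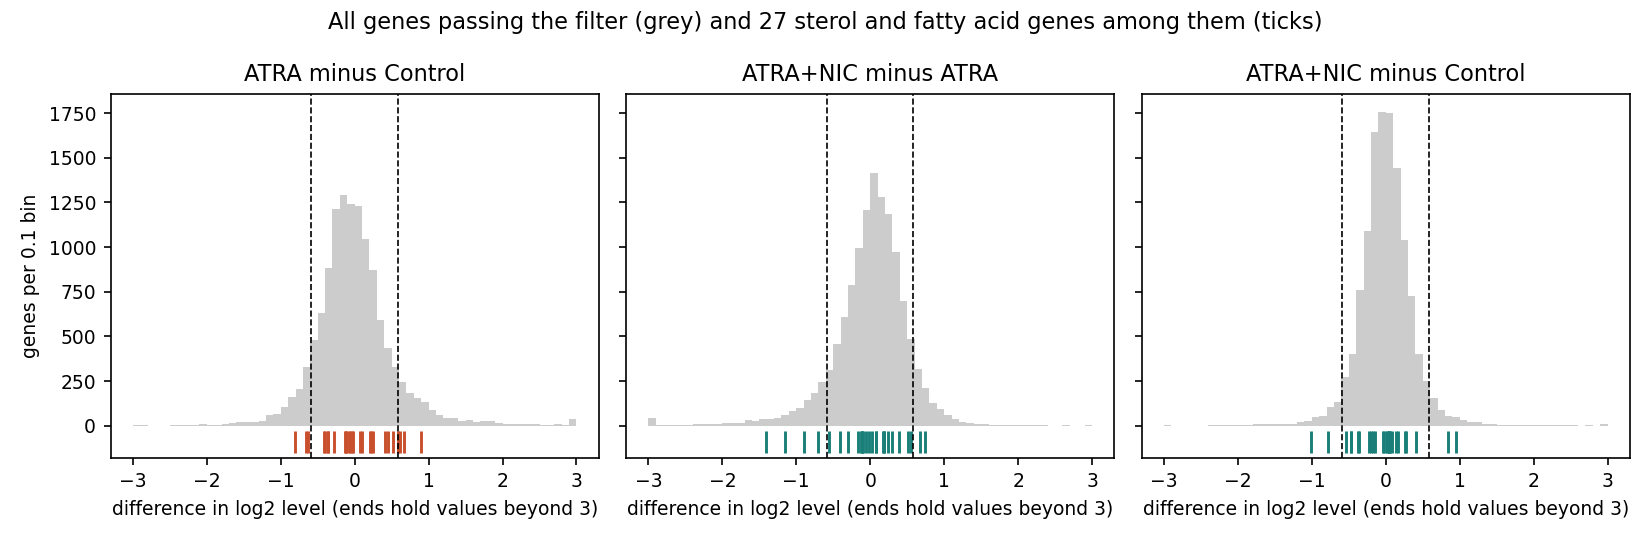
Histograms of log2 differences of 12467 genes in bins of 0.1 (grey bars), with the 27 sterol and fatty acid genes as ticks, for ATRA minus control, ATRA+NIC minus ATRA and ATRA+NIC minus control. Dashed lines stand at 1.5-fold, and the ticks lie within the bulk and both flanks of all genes.

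In the mevalonate arm, which leads from acetyl-CoA to farnesyl diphosphate, HMGCS1 had the widest range. HMGCS1 encodes the synthase that makes HMG-CoA and is a classical SREBP2 target. Its intensity was 717 with ATRA+NIC, 1914 with ATRA and 1444 in control cells. The value was highest with ATRA alone and lowest with ATRA+NIC, below the control. Both transcripts followed this order, with intensities of 770.5, 2445 and 1844 for AK095492 and 668, 1499 and 1131 for NM_002130. The log2 difference was −1.42 for ATRA+NIC against ATRA, with 240 of 12467 genes further down, and −1.01 against control, with 118 genes further down. For ATRA against control it was 0.41, or 1.33-fold, short of the threshold.

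IDI1, the isomerase that interconverts the isoprenoid building blocks, had intensities of 3739 with ATRA+NIC, 5526 with ATRA and 3686 in control cells. Its log2 differences, 0.58 between ATRA and control and −0.56 between ATRA+NIC and ATRA, lay just short of the threshold of 0.585. RefSeq lists 3 pseudogenes under its name, whose transcripts the probes may also bind. ACAT2, the cytosolic thiolase that condenses acetyl-CoA, went the other way, with 1416 with ATRA+NIC, 997 with ATRA and 1567 in control cells. It was 1.57-fold lower with ATRA than in control cells, and its difference for ATRA+NIC against ATRA was 0.51. The label was put on double-stranded cDNA, so signal from the opposite strand is not separated, and ACAT2 overlaps TCP1 in the annotation. The log2 difference of TCP1 was 0.01 and −0.30 in the same comparisons. PMVK, IDI1, FDPS, SC5D, SREBF2, INSIG2 and ACACA also overlap other genes there. IDI2-AS1, which overlaps IDI1, had log2 differences of 0.23 and −0.60 in these comparisons. Its log2 levels were 6.90, 7.50 and 7.27 on the ATRA+NIC, ATRA and control arrays. The part of these overlaps in the signal was not tested.

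The kinase gene MVK, which phosphorylates mevalonate, had 3214, 2715 and 3613 on the ATRA+NIC, ATRA and control arrays. Its log2 difference of −0.41 for ATRA against control had the same sign in both transcripts. PMVK and MVD, the next kinase and the decarboxylase, and FDPS, the farnesyl diphosphate synthase with 10 pseudogenes in RefSeq, stayed within −0.12 and 0.19 in all 3 comparisons. Of 7 genes in this arm, 0 were higher and 1 lower with ATRA than in control cells, where 9.90% and 8.99% of all genes were. With ATRA+NIC against ATRA the counts were again 0 and 1, where 7.88% and 9.47% of all genes were. With 7 genes, 1 gene is 14.3%, and nothing is read from these counts.

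**Figure D3:**
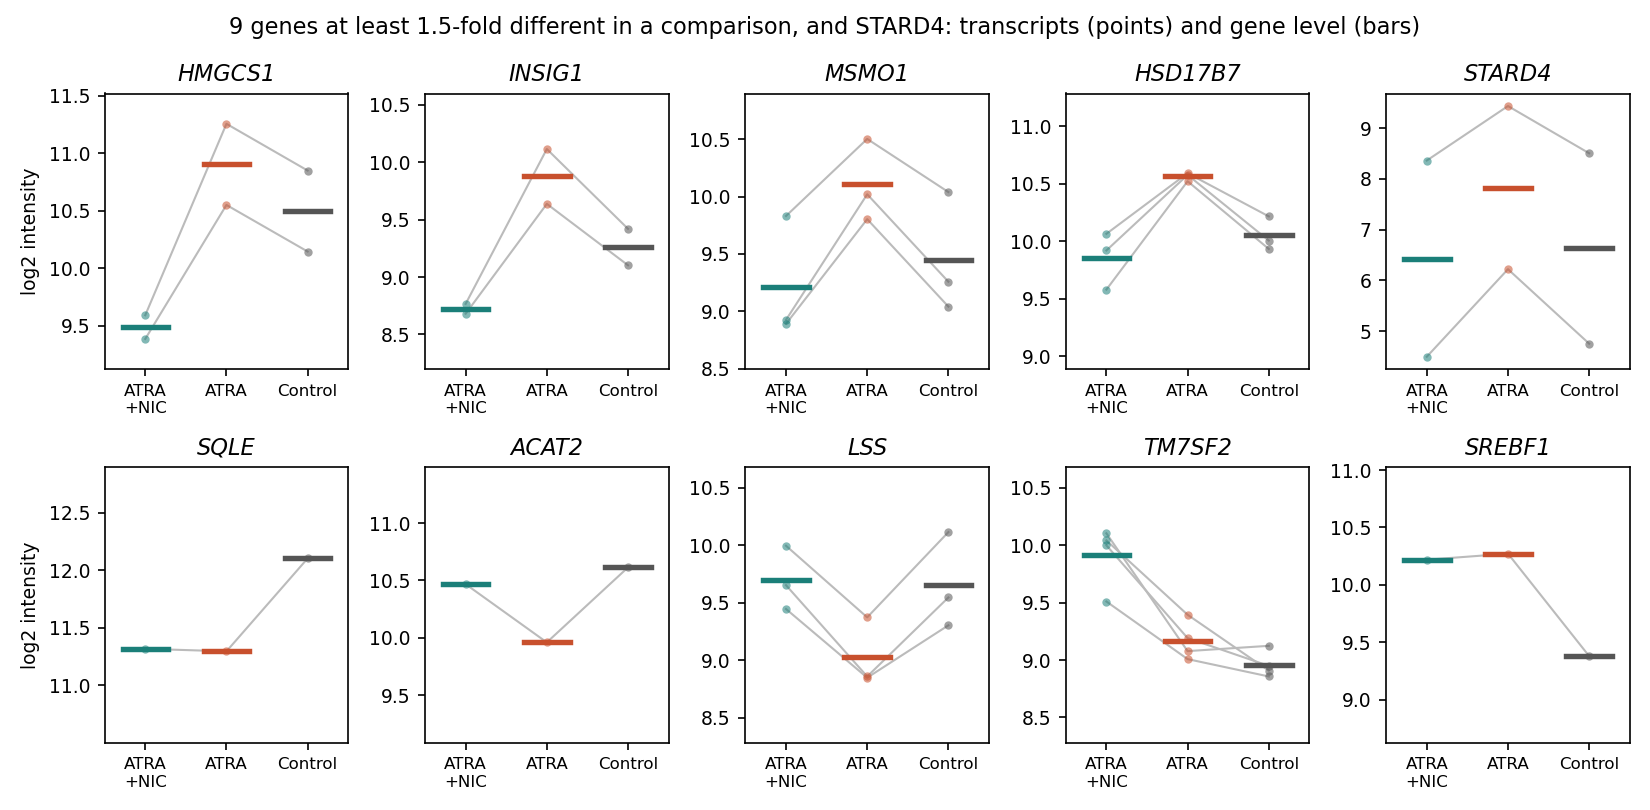
Log2 intensity on the ATRA+NIC, ATRA and control arrays for the 9 genes at least 1.5-fold different in a comparison and for STARD4, with points and grey lines for single transcripts and bars for the gene level. HMGCS1, INSIG1, MSMO1, HSD17B7 and STARD4 are highest on the ATRA array in every transcript, LSS and ACAT2 are lowest there, and SQLE is highest on the control array.

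The sterol arm begins with FDFT1, which joins farnesyl units to squalene, and SQLE, the squalene epoxidase and a rate-limiting step. SQLE had intensities of 2553 on the ATRA+NIC array and 2514 on the ATRA array, against 4403 on the control array. Both treated arrays were low and lay within 1.02-fold of each other. The log2 difference from control was −0.81 with ATRA and −0.79 with ATRA+NIC, where 506 and 237 genes lay further down, all from 1 transcript. FDFT1 had 5200, 6391 and 6666 on the ATRA+NIC, ATRA and control arrays, and all 4 transcripts were lower with ATRA+NIC than in control cells, by −0.22 to −0.55.

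LSS, the cyclase that folds oxidosqualene into lanosterol, was lowest on the ATRA array, at 522, against 831 on the ATRA+NIC array and 807 on the control array. All 3 of its transcripts were lower with ATRA than in control cells, between −0.74 and −0.46, and higher with ATRA+NIC than with ATRA, between 0.60 and 0.79. The gene lay close to the threshold, and its call against control was lost with an offset of 100 before log2 (−0.55) and with centring on the median difference of all genes (−0.58). The offset also took its call for ATRA+NIC against ATRA (0.58).

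CYP51A1, the lanosterol demethylase, had 1478 with ATRA+NIC, 1597 with ATRA and 2056 in control cells. NSDHL, a dehydrogenase of the same demethylation sequence, had 3969, 4267 and 5499 on these arrays. Both thus had their highest level in control cells, as SQLE did, and both had log2 differences of −0.37 with ATRA and of −0.48 and −0.47 with ATRA+NIC, under the threshold. RefSeq lists 3 pseudogenes of CYP51A1.

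The oxidase gene MSMO1, whose product acts beside NSDHL in removing methyl groups from sterols, had a different order. Its intensity was 595 with ATRA+NIC, 1104 with ATRA and 698 in control cells. The ATRA array stood above both others in all 3 transcripts, with log2 differences of 0.46 to 0.76 against control and of −1.09 to −0.67 for ATRA+NIC against ATRA. Read by its brightest transcript alone, its difference of 0.46 for ATRA against control is no longer past 1.5-fold. HSD17B7, the ketoreductase of the same complex, had 926, 1514 and 1061 on the ATRA+NIC, ATRA and control arrays, again highest on the ATRA array in all 3 transcripts. It was 1.43-fold higher with ATRA than in control cells and 1.64-fold lower with ATRA+NIC than with ATRA, or −0.53 in log2 by its brightest transcript, under the threshold. It has 2 pseudogenes in RefSeq. So of these demethylation genes, MSMO1 and HSD17B7 were highest on the ATRA array, and CYP51A1 and NSDHL on the control array.

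TM7SF2, a sterol reductase that acts after the lanosterol demethylase, was highest on the ATRA+NIC array. Its intensity was 964 there, 575 on the ATRA array and 498 on the control array. All 4 transcripts were higher with ATRA+NIC than with ATRA alone, by 0.50 to 1.03, and higher than in control cells, by 0.65 to 1.13. Between ATRA and control the transcripts differed in sign, from −0.05 to 0.49. Within this arm, the last steps varied least. EBP, the sterol isomerase, SC5D, the sterol desaturase, and DHCR7, the reductase that ends one branch of the pathway, had log2 differences between −0.16 and 0.25 in all 3 comparisons. In the arm of 11 genes, 1 was higher and 2 lower with ATRA than in control cells, or 9.09% and 18.2%, where 9.90% and 8.99% of all genes were. With ATRA+NIC against ATRA 2 were higher and 2 lower, 18.2% in each direction, where 7.88% and 9.47% of all genes were. With 11 genes, 1 gene is 9.09%, and nothing is read from the counts of this arm.

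**Figure D4:**
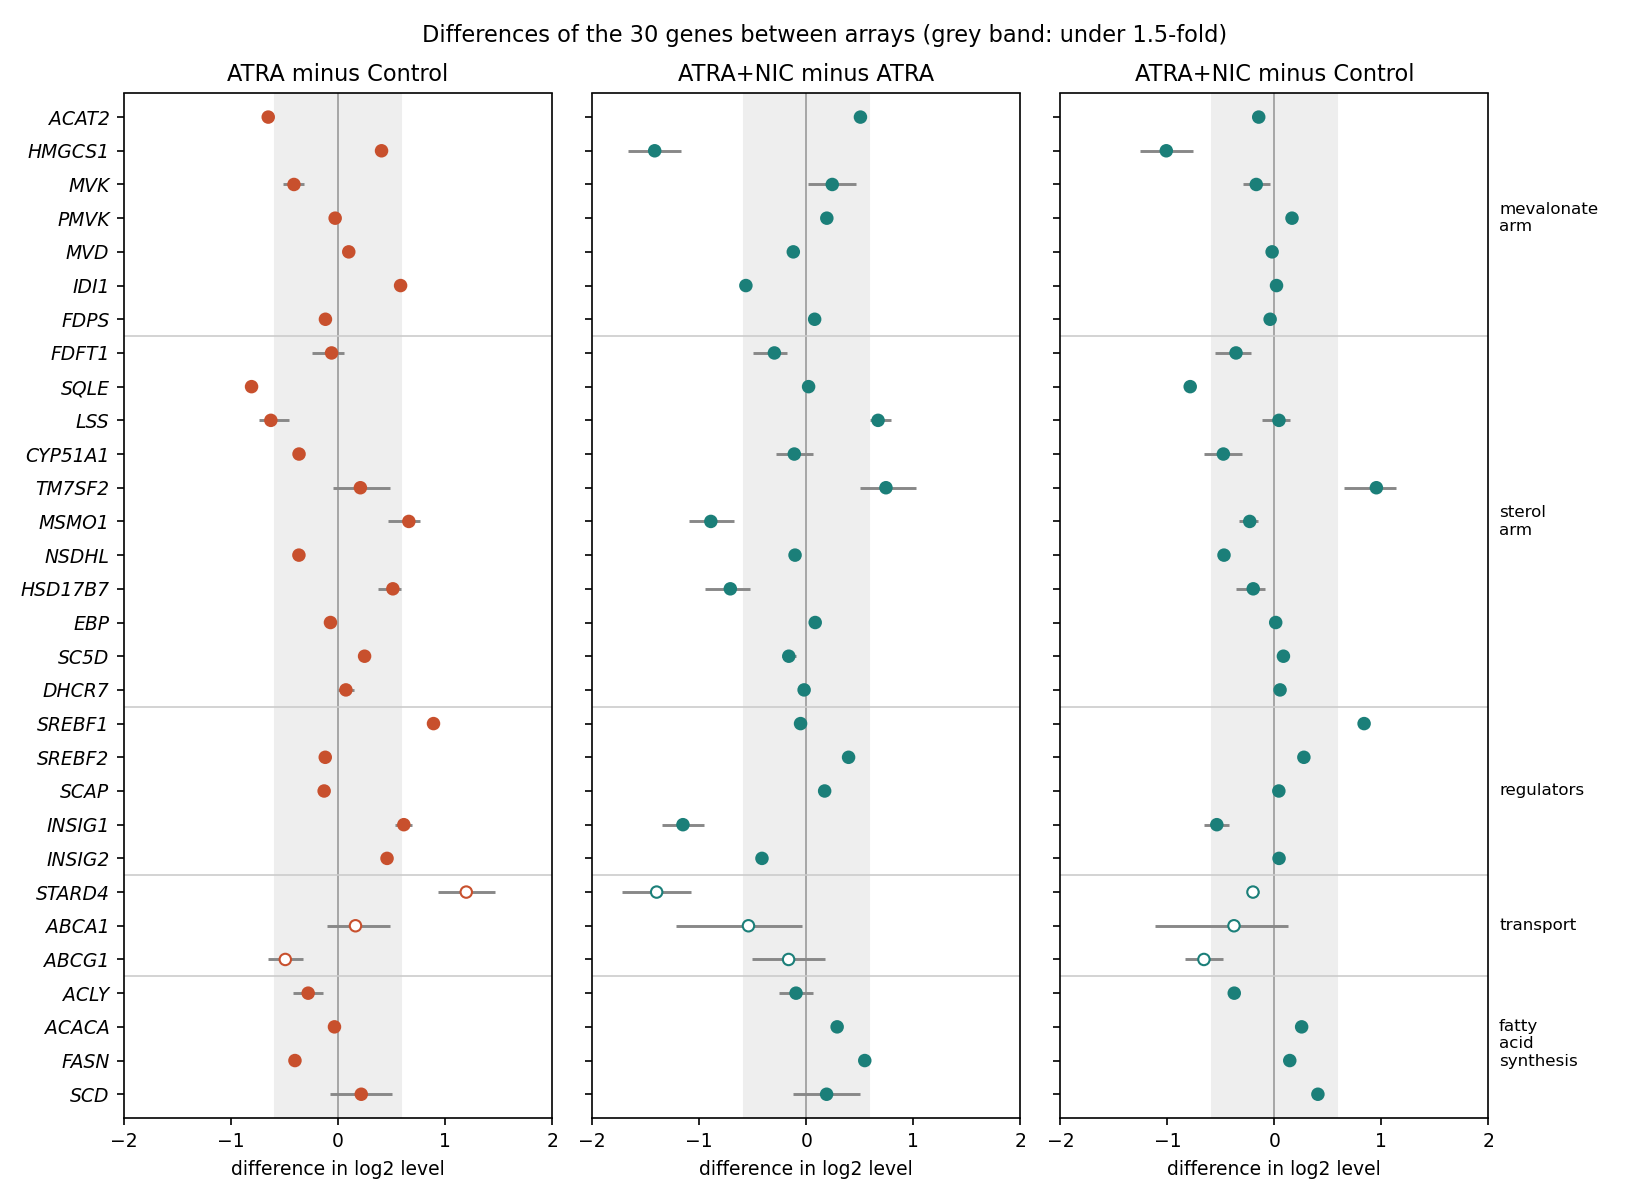
Differences in log2 level of the 30 genes for ATRA minus control, ATRA+NIC minus ATRA and ATRA+NIC minus control, with points for the gene level, lines for the range of its transcripts, open points for the 3 genes under the filter and a grey band for less than 1.5-fold. HMGCS1 (−1.42) and INSIG1 (−1.15) lie farthest down for ATRA+NIC minus ATRA among genes passing the filter, and TM7SF2 (0.95) farthest up for ATRA+NIC minus control.

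Among the regulators, INSIG1 was highest with ATRA alone. INSIG1, which retains the SCAP and SREBP complex and is itself switched on by SREBP, had 423 with ATRA+NIC, 939 with ATRA and 613.5 in control cells. Both transcripts were highest with ATRA alone and lowest with ATRA+NIC, at 410, 796 and 550 for BC001880 and 435, 1108 and 685 for NM_005542. The log2 difference was 0.61 for ATRA against control, 0.54 with an offset of 100 before log2, which is under the threshold. For ATRA+NIC against ATRA it was −1.15, with 358 genes further down, and for ATRA+NIC against control −0.54, or 1.45-fold lower. INSIG2, its paralog, which SREBP does not switch on, had 417, 556 and 405 on the ATRA+NIC, ATRA and control arrays, with differences of 0.46 and −0.41 in the first and second comparison, both under 1.5-fold and from 1 transcript. With ATRA+NIC INSIG2 lay within 1.03-fold of its control level. LOC645733, which overlaps INSIG2 in the annotation, was brighter, at log2 levels of 13.0, 13.1 and 12.9 on the ATRA+NIC, ATRA and control arrays. INSIG2 was at 8.7, 9.1 and 8.7.

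SREBF1, which encodes SREBP1, the form tied mainly to fatty acid synthesis, was high on both treated arrays. It had 1192 on the ATRA+NIC array and 1237 on the ATRA array, against 667 on the control array. Both treated arrays were within 1.04-fold of each other, and the log2 differences from control were 0.84 and 0.89. These values come from 1 transcript, NM_001005291. The annotation gives no other transcript of the gene here, so its isoforms cannot be told apart. SREBF2, which encodes SREBP2, the form tied mainly to cholesterol synthesis, had 1007, 765 and 831 on the ATRA+NIC, ATRA and control arrays, and its largest difference was 0.40 for ATRA+NIC against ATRA. SCAP stayed between −0.13 and 0.17.

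The transport genes were dim. STARD4, a cytosolic sterol carrier and SREBP target, had its brighter transcript NM_139164 at 329 with ATRA+NIC, 691 with ATRA and 363 in control cells, highest with ATRA. The dimmer transcript was at 22.6, 74.6 and 27, under an intensity of 50, the lowest the authors keep in their value table, on both the ATRA+NIC and the control array. With such values set to 50, STARD4 was at least 1.69-fold higher with ATRA than in control cells and at least 1.77-fold lower with ATRA+NIC than with ATRA. The gene level stayed under the filter, so STARD4 is in none of the counts. ABCA1 and ABCG1 export cholesterol from cells and are targets of the liver X receptors, not of SREBP. ABCA1 lay at 18.5, 26.9 and 24.0 and ABCG1 at 15.4, 17.2 and 24.2 on the ATRA+NIC, ATRA and control arrays, beside random probes at 18.4 to 19.6. Every transcript of both was under 50 except AK024328 of ABCA1, at 39.3, 91.5 and 85.1, so no fold is given for either gene.

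None of the 4 fatty acid synthesis genes reached 1.5-fold in any comparison. Of all genes, 9.90% were higher and 8.99% lower for ATRA against control, and 7.88% and 9.47% for ATRA+NIC against ATRA. For ATRA+NIC against control 3.96% and 3.87% of all genes were. With 4 genes, nothing is read from this count. FASN, the fatty acid synthase, had 4413 with ATRA+NIC, 3020 with ATRA and 3994 in control cells, lowest with ATRA, with log2 differences of −0.40 from control, and 0.55 between ATRA+NIC and ATRA. ACACA, the acetyl-CoA carboxylase that supplies malonyl-CoA, had 2528, 2069 and 2118 on these arrays. ACLY, which makes cytosolic acetyl-CoA from citrate, was highest in control cells at 8906, against 6869 with ATRA+NIC and 7337 with ATRA. SCD, the desaturase that makes monounsaturated fatty acids, had 5776, 5061 and 4356 on the ATRA+NIC, ATRA and control arrays. Its transcripts differed in sign for ATRA against control, at −0.07 and 0.51, and RefSeq lists 1 pseudogene. SREBF1 was high on both treated arrays, while of these 4 genes only SCD had its lowest level on the control array.

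A further list of 42 genes of sterol trafficking, sensing and lipid synthesis was set beside the 30, and 33 of them passed the filter. For ATRA against control 3 were at least 1.5-fold higher, or 9.09%, and 2 were lower, or 6.06%, where 9.90% and 8.99% of all genes were. For ATRA+NIC against ATRA 3 were higher and 5 lower, 9.09% and 15.2%, where 7.88% and 9.47% of all genes were. For ATRA+NIC against control 0 were higher and 1 was lower, or 3.03%, where 3.96% and 3.87% of all genes were. The lower one was ELOVL5, a fatty acid elongase gene, at −0.59. Genes highest on the ATRA array included NPC1, which releases cholesterol from lysosomes, with 4547 with ATRA+NIC, 8461 with ATRA and 4369 in control cells. MYLIP, a ubiquitin ligase gene and a target of the liver X receptors, had 322, 1214 and 292, or 4.16-fold higher with ATRA than in control cells. ELOVL5 had 253, 563 and 381, again highest with ATRA and 2.22-fold lower with ATRA+NIC than with ATRA alone.

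The opposite order, lowest on the ATRA array, was seen for GPAM, an acyltransferase gene of glycerolipid synthesis. It had 315.5 with ATRA+NIC, 150.5 with ATRA and 259 in control cells. TMEM97, a sterol-regulated membrane protein gene, was 1.57-fold lower with ATRA than in control cells. MID1IP1, whose product activates acetyl-CoA carboxylase, was 2.02-fold higher with ATRA than in control cells and 1.51-fold lower with ATRA+NIC than with ATRA. With ATRA+NIC, the fatty acid elongase gene ELOVL6 and the desaturase gene FADS2 were 1.61-fold and 1.69-fold higher than with ATRA alone, and OSBP, an oxysterol-binding protein gene, was 1.56-fold lower.

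In the hg18 annotation of the files, the transcripts of HMGCS1 span chromosome 5 from 43325253 to 43349271 and those of INSIG1 chromosome 7 from 154720475 to 154732879. Those of MSMO1 span chromosome 4 from 166468267 to 166483761, of LSS chromosome 21 from 46432787 to 46473119 and of TM7SF2 chromosome 11 from 64635931 to 64640282. SREBF1 lies on chromosome 17 from 17656110 to 17681050 and ACAT2 on chromosome 6 from 160103074 to 160120077.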

How the data were processed

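For each array the authors deposited a linear-scale intensity for each of 45033 transcripts, and per the file headers these are RMA gene calls over 3 probes each. The sources used here do not name the software, its version or its settings. The authors' series value table, also an intensity table, holds the same values, to within 0.0319, for 31275 transcripts, those at 50 or more on every array. A deposited column headed as a standard error has no defined unit and was not used.

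A gene name was given for 42947 transcripts. Of 23619 Entrez numbers, 20230 matched a RefSeq symbol (GRCh38.p14). Intensities were taken to log2 and averaged over the transcripts of a gene, with no further scaling, in Python 3.11.15 with pandas 2.3.3 and numpy 2.4.6. The 50th percentile filter kept 12467 genes. Differences of at least 1.5-fold were counted, with no p-value, since each group holds 1 array, and the number of arrays limits the precision. The counting code was checked on simulated data with made noise, which says nothing of the error between cultures. All 30 genes are named, and other pathway genes where they reached 1.5-fold. Some genes of the pathway are not reported here.  The genes, lists and threshold were chosen with earlier results of these data known. Alternatives were the brightest or median transcript, values under 50 set to 50, an offset of 100, no filter or one at the 75th percentile, the value table, centring and a 2-fold threshold. Promoter sequences are from RefSeq.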

Additional observations from a re-analysis of the deposited data

How the results depend on the processing

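Across the alternatives, 67 of 78 counts and medians of the list were labelled unchanged, and the 11 that moved were all counts. A count was kept when it stayed within 1.5 times the count given. A median was kept when it moved by less than the pooled transcript SD of all genes, 0.31, 0.30 and 0.24. The medians lay so near 0 that they could hardly fail this rule, so they say little about stability. None of the differences past 1.5-fold changed sign in any alternative. With a 2-fold threshold, 0 genes were higher and 0 lower for ATRA against control, 0 higher and 2 lower for ATRA+NIC against ATRA, and 0 higher and 1 lower for ATRA+NIC against control. With the filter at the 75th percentile, which left 20 of the 30 genes, 0 were higher for ATRA against control, 0 higher and 2 lower for ATRA+NIC against ATRA, and 0 higher for ATRA+NIC against control. The offset of 100 left 1 higher gene for ATRA+NIC against ATRA. Centring brought IDI1 past the threshold against control with ATRA (0.63) and against ATRA with ATRA+NIC (−0.62), and the brightest transcript did so for INSIG1 for ATRA+NIC against control (−0.65). The signs of the list medians are not stable, since all lay within 0.08 of 0. No paired analysis was possible because each group holds 1 array. Signal near the random probes limits ABCA1 and ABCG1, and the lack of replicates limits every difference.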
